A study of Homo sapiens with 15 samples.

Results

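Low-methylated regions that lay outside partially methylated domains and were shared by every unperturbed methylome were examined in HCT116 cells, a human colorectal carcinoma epithelial line. A methylation level (mC) is the number of reads that keep C at CpG sites divided by all reads there, and the study's domain lists give 4 classes: HMDs (highly methylated domains), PMDs (partially methylated domains), UMRs (unmethylated regions) and LMRs (low-methylated regions). Common LMRs were the autosomal base pairs in class LMR in all 5 Baseline lists and in class PMD or UMR in none, merged into pieces of 100 bp or more with 3 or more CpGs. The rule gave 11820 regions, beside 191710 other autosomal stretches that were in class LMR in at least 1 Baseline list. Of 62337055 bp in class LMR in all 5 lists, 6948767 bp were in class PMD or UMR in none, so most shared LMR sequence was left out. Since the Baseline lists chose the regions, their low Baseline mC is a description and carries no test.

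The cells carried a stably integrated doxycycline (dox)-inducible short hairpin RNA (shRNA) against the transcript of UHRF1 or of DNMT1. The shUHRF1 samples were 3 clones (Cl.3, Cl.6 and Cl.9), each grown from a single cell, and the shDNMT1 samples were R1 and R2, both grown in bulk. Each population gave 1 whole-genome bisulfite library at each of 3 stages. Baseline cells grew for 14 days without dox, Knockdown cells for 14 days with 10 ng/mL dox, and Recovery cells for 14 days with dox and then 14 days without it, to day 28. All libraries, Baseline included, came from cells with the integrated shRNA, and Recovery had no Baseline library of its own day. The shRNA, clonal or bulk culture and the table that held the counts changed together and cannot be told apart. The clones were split as well, with counts of Cl.3 and Cl.6 held together and those of Cl.9 apart. UHRF1 and DNMT1 levels were not analysed here.

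DNMT1 is the methyltransferase that copies CpG methylation onto newly made DNA. Hemimethylated CpGs are recognised by UHRF1, a ubiquitin ligase, which brings DNMT1 to them. LMRs are short dips in an otherwise methylated genome, poor in CpGs and mostly away from gene starts, and they are known to mark enhancers and other sites held by sequence-specific DNA-binding proteins. UMRs are longer and richer in CpGs and mostly coincide with CpG island promoters, while PMDs are long domains of intermediate methylation. CTCF, which organises chromatin loops, and AP-1, a dimer of JUN and FOS family proteins active in many epithelial tumour lines, are factors commonly bound at such distal sites.

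Common LMRs were short, mostly more than 1 kb from protein-coding gene starts, and rich in matches to the CTCF and AP-1 motifs. Their median length was 496 bp (quartiles 349 and 719 bp, range 100 to 8659 bp) and their median CpG number was 8 (range 3 to 29). Together they covered 6933189 bp and 118995 CpGs, with 17.2 CpGs per kb against 14.2 per kb in the flanks, which are the windows 1000 to 2000 bp to each side of a region, kept where they were in class HMD in all 5 Baseline lists. They lay a median of 29252.5 bp from the nearest protein-coding gene start, and 397 of 11820 (3.36%) lay within 1 kb of one. The same share was 70.7% for 12627 common UMRs called the same way, 2.04% for the flanks and 1.57% for autosomal windows of 496 bp. The median distance was 30063.5 bp for the flanks and 89667 bp for the autosomal windows, so common LMRs were nearer to gene starts than those windows. More than 50 kb away lay 34.5% of common LMRs, 35.1% of the flanks and 62.9% of the windows. When starts of all annotated genes were used, 9.42% lay within 1 kb. The centre of 50.6% of the regions was intergenic, of 44.4% intronic and of 5.07% exonic, against 54.7%, 42.4% and 2.89% of the autosomal windows. In the flanks the shares were 49.4%, 46.0% and 4.59%. Their number per megabase ranged from 2.11 on chromosome 13 to 10.5 on chromosome 19.

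Of 13 motifs searched on both strands, CTCF and AP-1 stood furthest above the sequence around the regions. The CTCF consensus matched 1523 common LMRs (12.9%) and 0.385% of equal-length windows outside them, a ratio of 33.5. The AP-1 motif, TGANTCA, matched 5316 (45.0%) against 16.4% of those windows. In windows of 496 bp centred on each region the shares were 12.4% and 41.5%, against 0.183% and 14.7% of all autosomal windows of that length. Smaller differences in share were seen for the other 11 motifs, and for some of them the direction turned with the windows compared. The TEAD motif, ACATTCC, matched 10.6% of regions and 7.45% of windows. The motif of RUNX factors, TGTGGTT, matched 12.7% and 9.46%. The motif of TCF/LEF factors, CTTTGAT, through which Wnt signalling acts, matched 9.68% and 7.47%. The SP/KLF motif, GGGGCGGGG, matched 3.43% of regions and 1.73% of windows, and 0.697% of all autosomal windows. The motif of FOXA factors, TGTTTAC, matched 8.76% and 7.03%. HNF4 factors, with the motif CAAAGTCCA, had matches in 1.07% and 0.690%, and ETS factors, with the motif ACCGGAAG, in 0.804% and 0.444%. Nearly equal shares were found for the GATA motif, AGATAAG, with 7.09% and 6.89%, for the C/EBP motif, TTGCNNAA, with 23.7% and 23.2%, and for the NFY motif, CCAATCA, with 5.74% and 5.53%. NRF1 matched 7 regions (0.0592%) and 0.0296% of windows. When the windows of 496 bp centred on the regions were set against all autosomal windows, the shares were lower for TCF/LEF (7.95% against 8.19%), FOXA (6.85% against 7.58%), GATA (5.38% against 6.98%), C/EBP (20.5% against 24.7%) and NFY (4.68% against 5.26%). They were higher for TEAD (8.84% against 7.80%), RUNX (10.5% against 9.23%), HNF4 (0.778% against 0.636%), ETS (0.795% against 0.231%) and NRF1 (0.0677% against 0.0157%). By the ratio of shares in this comparison, SP/KLF (4.92), NRF1 (4.31) and ETS (3.44) stood above AP-1 (2.82) and below CTCF (67.7). A match is a description of the letters and not a measured binding site.

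**Figure D1:**
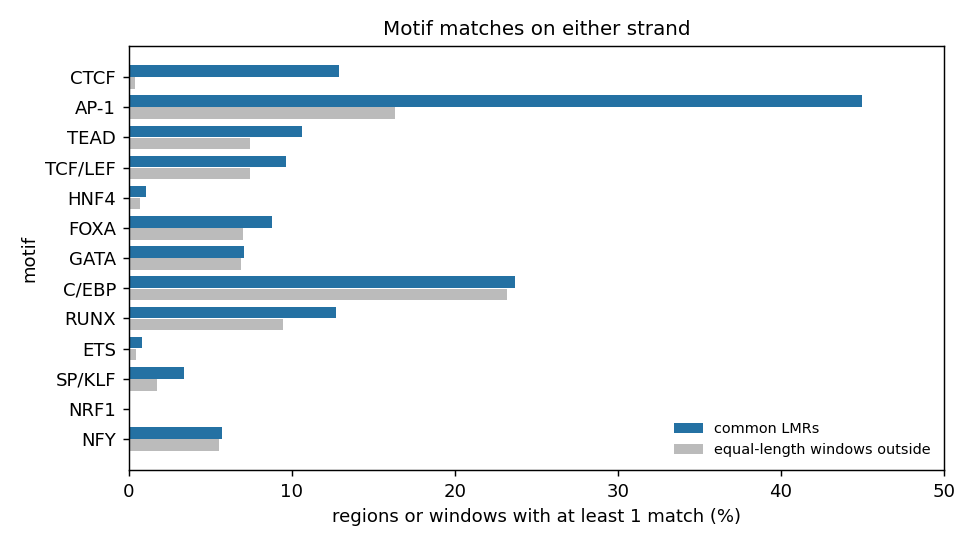
Share of common LMRs (blue) and of equal-length windows outside them (grey) with at least 1 match to each of 13 motifs on either strand, in percent. CTCF (12.9% against 0.385%) and AP-1 (45.0% against 16.4%) show the widest gaps, and most other pairs of bars are of similar length.

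These windows show what such matches look like inside individual common LMRs, with the match in capitals, 5′ to 3′ on the strand given (hg38). The CTCF windows are chr6:3742554-3742577 (plus strand, in an intron of PXDC1), chr5:150161785-150161808 (plus strand, upstream of CDX1) and chr17:64025960-64025983 (minus strand, upstream of ICAM2, a region chosen for its many reads).
CTCF match in the PXDC1 region: gactgaCCAGCAGGGGGCgcgcgc
CTCF match in the CDX1 region: ggagtgCCAGCAGGTGGCggcccc
CTCF match in the ICAM2 region: ctttggCCACTAGGTGGCgggcag

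The AP-1 windows are chr9:108057272-108057294, in an intergenic region whose nearest start is that of KLF4, chr1:33433885-33433907, upstream of PHC2, and chr6:3742234-3742256, in the same PXDC1 region as above, all on the plus strand. None of the AP-1 windows held a CpG, while the CTCF windows held 3, 1 and 1.
AP-1 match in the region nearest KLF4: ttaatggaTGAATCAcattccat
AP-1 match in the PHC2 region: gaagttgtTGACTCAgagaatcc
AP-1 match in the PXDC1 region: ctcctttgTGACTCAagtgcttt

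Over all autosomal CpGs the libraries held between 309268341 and 577680690 reads. Reads over common LMRs numbered 1821233 to 3725465 per library, with a median of 128 to 262 per region, so that the 95% Wilson interval of the pooled mC was at most 0.0401 points to each side. Such intervals cover counting error only. At Baseline the promoters of 6 blood and 4 fibroblast marker genes had an mC of 74.3% to 98.5% in every library. Of 8 epithelial markers, CLDN7 (2.96% to 22.8%) and EPCAM (16.8% to 27.0%) had the lowest promoter levels and VIL1 the highest (90.1% to 98.0%), and CDH1, KRT8, KRT18, ELF3 and CDX2 lay between 23.9% and 70.2%. The Cl.6 Baseline library stood apart in its background. Its mitochondrial CpGs read 2.50% methylated against 0.257% to 0.500% in the other 14 libraries, and its common UMRs read 4.39%.

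The mC of common LMRs was lower at Knockdown than at Baseline in every population. Pooled over all regions, mC was 8.37% at Baseline, 4.37% at Knockdown and 5.70% at Recovery in Cl.3. In Cl.6 it was 9.35%, 3.43% and 4.79%, and in Cl.9 7.44%, 2.32% and 3.801%. In R1 it was 6.72%, 2.49% and 6.51%, and in R2 6.78%, 2.41% and 6.53%. The Knockdown and Baseline libraries did not overlap. Within each clone the Recovery level lay between its own Knockdown and Baseline levels, and the Recovery levels of the bulk populations differed from their Baseline by -0.215 points (R1) and -0.253 points (R2).

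The mean change at Knockdown was -5.01 ± 0.96 points in the shUHRF1 clones (SD, n = 3, p = 0.25, exact two-sided sign-flip permutation, the smallest p 3 populations allow) and -4.30 ± 0.098 points in the shDNMT1 populations (SD, n = 2, exact p = 0.5, the smallest for 2). With regions chosen without the population's own Baseline list, the mean changes were -6.31 and -4.46 points. The difference, clones minus bulk populations, was -0.709 points (p = 0.6, exact permutation over 10 splits of 3 against 2), with -1.22 points without Cl.3 and -0.257 points without Cl.6. It was -0.0731 points after each library's mitochondrial mC was subtracted and -1.85 points with regions chosen without the population's own list, and on the log odds scale it took the other sign.

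**Figure D2:**
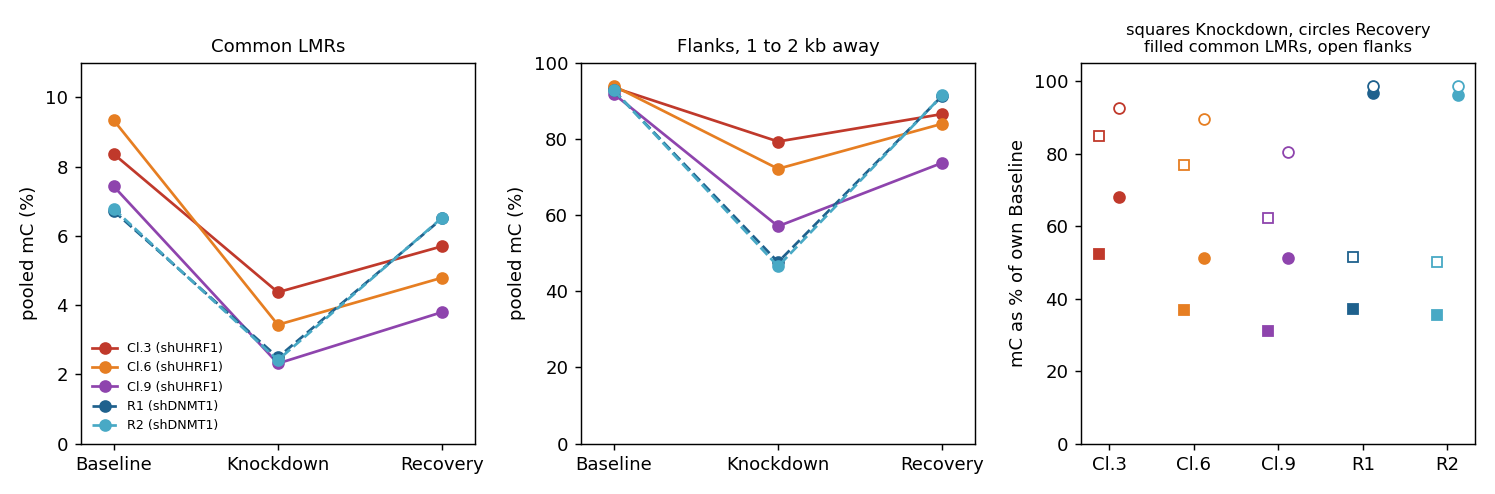
Pooled mC (%) of common LMRs and of their flanks at Baseline, Knockdown and Recovery, 1 line per population (solid shUHRF1, dashed shDNMT1), and mC as a percentage of the population's own Baseline (squares Knockdown, circles Recovery, filled common LMRs, open flanks). Every filled square lies below its open square, and the circles of R1 and R2 are above 96% while those of the clones are at 51.1% to 68.1% for common LMRs.

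Most single regions followed the pooled level. The mC was lower at Knockdown than at Baseline in 84.2% of regions in Cl.3, 95.9% in Cl.6, 94.1% in Cl.9, 91.1% in R1 and 93.4% in R2. In 8165 regions (69.1%) it was lower in all 5 populations, and in 7 it was lower in none. A fall of 10 points or more was seen in 13.8% to 20.4% of regions. The median region stood at 5.69% to 8.03% at Baseline, 1.27% to 2.76% at Knockdown and 2.47% to 5.41% at Recovery. The number of regions with no methylated read was 93 to 485 per library at Baseline and 1001 to 1533 at Knockdown, where a count of 0 over their median of 101 to 181 reads allows an mC of up to 2.97% to 1.66%. As a description, the ranking of regions was shared in part, with Spearman's rho between populations of 0.43 to 0.86 at Baseline and 0.43 to 0.69 at Knockdown across 11820 regions, highest between R1 and R2 at both stages.

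Relative to where they started, common LMRs kept less methylation than the highly methylated DNA beside them. At Knockdown they held 52.2% of their Baseline mC in Cl.3, 36.7% in Cl.6, 31.1% in Cl.9, 37.0% in R1 and 35.6% in R2. Their flanks held 84.8%, 76.8%, 62.1%, 51.4% and 50.2% in the same order. The difference, common LMRs minus flanks, was -26.5 ± 11.52 percentage points (SD, n = 5, p = 0.0625, exact two-sided sign-flip permutation, the smallest p that 5 populations allow), and it was negative in 5 of 5 populations. This share divides by Baseline mC, which the rule set low in common LMRs and high in the flanks, so the test is not independent of the rule. With regions chosen without the population's own Baseline list the difference was -25.3 points. On average common LMRs kept 40.04 ± 10.9% in the clones (SD, n = 3) and 36.3 ± 1.04% in the bulk populations (SD, n = 2). In the same groups common UMRs kept 34.2 ± 12.7% and 38.9 ± 1.97%, and the other LMR stretches 53.5 ± 16.4% and 44.1 ± 0.684%. Their starting levels were unlike. Mean Baseline mC in the clones and in the bulk populations was 2.96% and 1.68% for common UMRs and 31.4% and 32.5% for the other LMR stretches. For common LMRs it was 8.39% and 6.75%. At Knockdown common UMRs stood at 0.931% and 0.652%, near the mitochondrial mC of 0.257% to 0.500%, which the shares above do not subtract. The difference of common LMRs from the flanks was -34.6 ± 4.8 points over the clones and -14.5 ± 0.18 points over the bulk populations. Over all 5 populations it was -27.7 points after each library's mitochondrial mC was subtracted, and the share kept in Cl.6 became 42.8%. The direction depends on the scale, because on the log odds scale the fall was larger in the flanks in 5 of 5 populations, by 1.10 ± 0.48 units (exact p = 0.0625). In absolute points, too, the flanks fell by more, by 14.2 to 46.3 points.

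Around their centres the dips stayed in place and widened. In the central 200 bp mC was 5.16% to 8.18% at Baseline and 1.90% to 3.74% at Knockdown, and in the first 100 bp beyond 1 kb it was 86.0% to 88.5% at Baseline and 39.9% to 72.4% at Knockdown. The distance from the centre at which mC reached the midpoint between the centre and the outermost 500 bp was 248 to 260 bp at Baseline. It grew by 45.5 ± 17.0 bp at Knockdown in the clones (SD, n = 3, exact p = 0.25) and by 59.7 ± 1.8 bp in the bulk populations (SD, n = 2, exact p = 0.5). At Recovery the clones were still 48.9 ± 22.02 bp wider than at Baseline, while the bulk populations were 3.16 ± 2.13 bp wider. The Baseline lists set the edges of the regions, so the widening from Baseline is not independent of the rule.

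**Figure D3:**
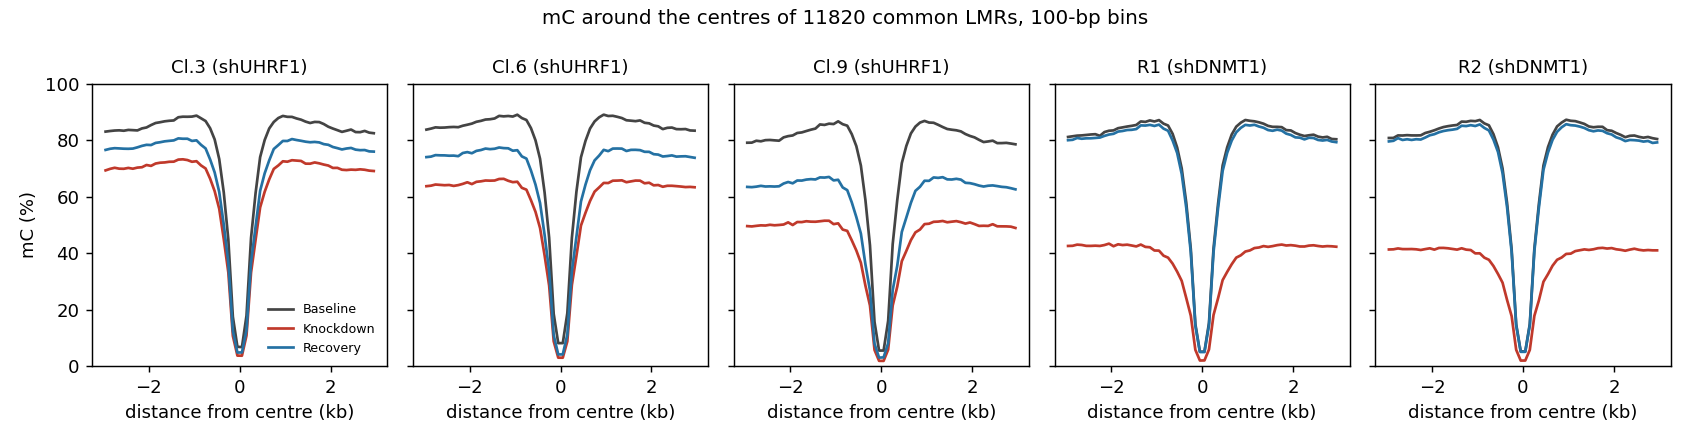
Pooled mC (%) in 100-bp bins from 3 kb before to 3 kb after the centres of 11820 common LMRs, 1 panel per population, with Baseline in grey, Knockdown in red and Recovery in blue. The dip remains at every stage, the surroundings fall at Knockdown, and the Recovery curve lies on the Baseline curve in R1 and R2 and between the other 2 curves in the clones.

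Low-density and high-density CpGs kept similar shares of their mC inside common LMRs and less similar shares in the flanks. Low-density CpGs are those with no other CpG closer than 20 bp, and they made up 43.5% of CpGs in common LMRs and 47.4% in flanks. Inside common LMRs low-density CpGs were more methylated than high-density CpGs in every library, with 9.91% against 7.06% in Cl.3 and 8.35% against 5.39% in R1 at Baseline, and 5.18% against 3.71% and 3.03% against 2.05% at Knockdown. The share of Baseline mC kept at Knockdown, low-density minus high-density, was -0.359 percentage points in Cl.3, 2.97 in Cl.6, -2.36 in Cl.9, -1.76 in R1 and -0.827 in R2. In the flanks the same difference was -9.87, -12.5, -18.0, -8.20 and -8.00 points. The gap between common LMRs and flanks was 10.9 ± 4.5 points (SD, n = 5, higher in common LMRs in 5 of 5, exact sign-flip p = 0.0625). The reading depends on the scale, and these shares also divide by the Baseline mC that chose the regions. In points, low-density CpGs fell by more in both. Their fall minus that of high-density CpGs, divided by the fall of all CpGs, was 0.347, 0.197, 0.456, 0.467 and 0.438 in common LMRs. In the flanks it was 0.615, 0.504, 0.431, 0.130 and 0.123, above common LMRs in Cl.3 and Cl.6 and below them in Cl.9, R1 and R2.

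After dox removal the bulk populations regained nearly all of what common LMRs had lost, and the clones regained a smaller part. From Knockdown to Recovery mC rose by 1.33 points in Cl.3, 1.36 in Cl.6, 1.48 in Cl.9, 4.02 in R1 and 4.12 in R2. The mean was 1.39 ± 0.082 points in the clones (SD, n = 3, exact p = 0.25) and 4.07 ± 0.070 points in the bulk populations (SD, n = 2, exact p = 0.5). The difference, clones minus bulk populations, was -2.68 points (exact permutation p = 0.2, the smallest that 3 against 2 allows), and neither stage of this comparison was used to choose the regions.

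The share of the loss that was regained was 33.3% in Cl.3, 23.01% in Cl.6, 29.0% in Cl.9, 94.9% in R1 and 94.2% in R2. In the flanks it was 51.0%, 54.4%, 47.96%, 97.0% and 97.2%. Common LMRs minus flanks, the difference was -14.6 ± 12.3 percentage points (SD, n = 5, exact sign-flip p = 0.0625, lower in 5 of 5). It was -22.7 ± 7.5 points over the clones and -2.51 ± 0.65 points over the bulk populations. The loss that divides this share is counted from Baseline, which chose common LMRs and flanks, so the test is not independent of the rule. With regions chosen without the population's own Baseline list the difference over all 5 populations was -15.8 points. In the clones common UMRs regained 13.4 ± 6.68% and the other LMR stretches 20.6 ± 6.01% of their loss (SD, n = 3), both below the mean of common LMRs, 28.4 ± 5.15%, and in the bulk populations they regained 90.1 ± 2.47% and 96.9 ± 0.050% (SD, n = 2). After subtraction of mitochondrial mC the share that common LMRs regained in Cl.6 was 35.2% in place of 23.01%, and their difference from the flanks was -13.3 points. Without subtraction common UMRs regained 5.89% in Cl.6, whose Baseline had the high background, against 18.7% in Cl.3 and 15.5% in Cl.9. Recovery minus Baseline, mC was -3.62 ± 0.94 points in the clones (SD, n = 3, exact p = 0.25) and -0.234 ± 0.027 points in the bulk populations (SD, n = 2, exact p = 0.5).

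The authors' domain lists show the same regions changing class. A region was assigned to a class when at least 50% of its length lay in it, and PMD calls can overlie LMR and UMR calls. At Knockdown 93.9% of common LMRs were in class LMR in Cl.3, 88.5% in Cl.6, 65.7% in Cl.9, 28.0% in R1 and 24.7% in R2. Nearly all others lay in a UMR, with 5.69%, 11.4%, 34.3%, 72.0% and 75.3% in the same order. The mean share in class UMR was 17.1 ± 15.1% in the clones (SD, n = 3) and 73.6 ± 2.3% in the bulk populations (SD, n = 2). In both R1 and R2, 7639 regions (64.6% of all common LMRs) were in a UMR, and 98.4%, 98.1% and 93.9% of the regions that were in a UMR in Cl.3, Cl.6 and Cl.9 were among them. PMD calls reached over 15.4%, 40.9% and 84.6% of regions in the clones, with 19.4% in R1 and 18.1% in R2.

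At Recovery 96.5%, 93.8% and 87.8% were in class LMR in the clones and 99.3% in each bulk population. Of the regions in a UMR at Knockdown, 41.9%, 48.6% and 34.7% were still in a UMR at Recovery in Cl.3, Cl.6 and Cl.9, against 0.658% in R1 and 0.416% in R2. In all 15 libraries 1952 regions (16.5%) were in class LMR. The calls that held these regions had also grown. LMR calls that held a common LMR had a median length of 591 to 631 bp at Baseline, 816, 937 and 1348 bp at Knockdown in the clones and 1916 and 1978 bp in R1 and R2. The Recovery medians were 722, 784, 980, 649 and 645 bp. In every library LMR calls that held a region had at most 30 CpGs and UMR calls at least 30, so the class followed the number of CpGs in the call. At Knockdown the pooled mC of the regions was 2.32% in Cl.9 and 2.49% in R1, where 34.3% and 72.0% lay in a UMR. The part of the longer calls in the change of class was not tested.

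**Figure D4:**
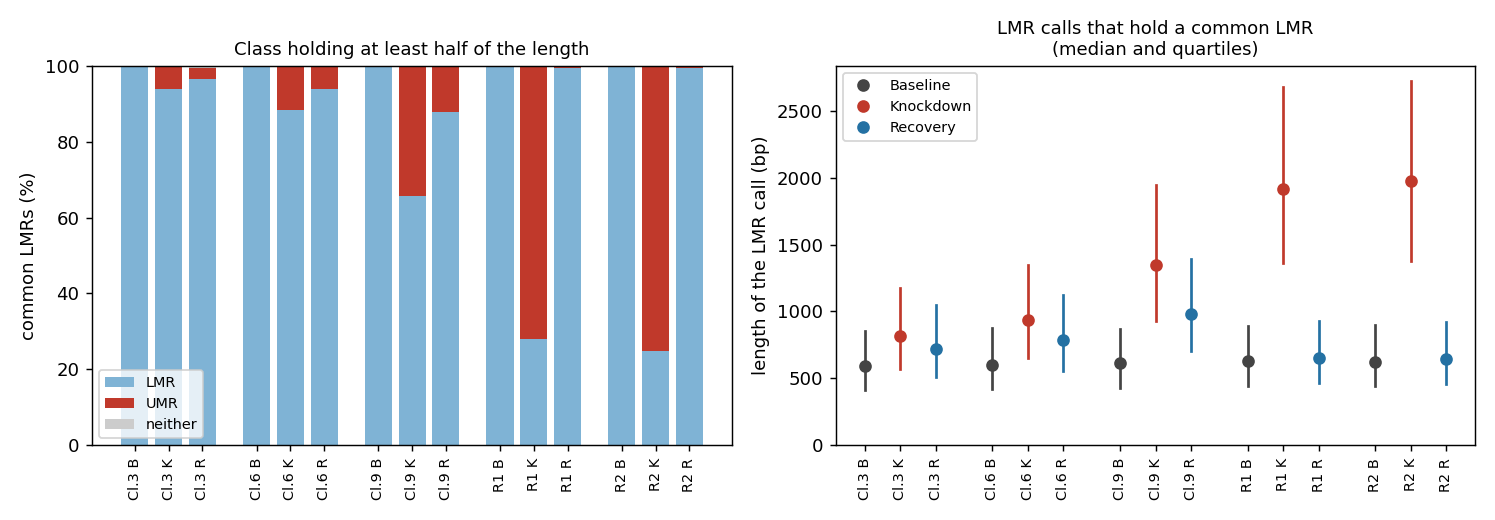
Left, percentage of 11820 common LMRs with at least 50% of their length in class LMR (blue), UMR (red) or neither (grey) in each library (B Baseline, K Knockdown, R Recovery). Right, median and quartiles of the length in bp of the LMR calls that hold a common LMR. Red reaches 72.0% and 75.3% in R1 and R2 at Knockdown and 34.3% in Cl.9, and the calls are longest in the same libraries.

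Tested one by one, most common LMRs fell at Knockdown, as did most regions of other kinds. The test was edgeR's quasi-likelihood test on methylated and unmethylated counts with the population as a block, over 226616 regions that also included flanks, other LMR stretches and common UMRs, with Benjamini-Hochberg adjustment and an adjusted p under 0.05. Of 11820 common LMRs 11809 had 20 or more reads in every library and were tested. Under shUHRF1 9075 fell (76.8%), against 94.0% of all regions tested, and 1 rose, against 0.00397%. Under shDNMT1 7370 fell (62.4%), against 92.4%, and 4 rose, against 0.00706%. The median log2 change in odds over common LMRs was -1.69 and -1.59, beside -1.42 and -1.62 over all regions tested. Of the regions tested 190744 were other LMR stretches, whose Baseline mC was higher, so the shares over all regions come from unlike starting levels. The part of the starting level in the shares called was not tested. The Baseline lists chose common LMRs and the other kinds of region. Calls against Baseline, here and at Recovery, are therefore not independent of the rule. In the flanks, which carried more methylated reads, 99.9% fell under shUHRF1. When the population was not used as a block, 4227 common LMRs fell under shUHRF1 and 2012 under shDNMT1. The shares under shUHRF1 and shDNMT1 rest on 3 and 2 populations. With the block, 8868 common LMRs fell under shUHRF1 without Cl.3, 6926 without Cl.6 and 7028 without Cl.9. Without R1 or without R2, 4038 and 3332 common LMRs were called under shDNMT1.

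At Recovery 5777 common LMRs (48.9%) were still lower than at Baseline under shUHRF1, against 80.9% of all regions, and 4 were higher, against 0.00971%. Without Cl.6, whose Baseline had the high background, 3386 were lower. Under shDNMT1 none was called by edgeR or by limma, and edgeR called 0.0% of all regions. An unadjusted edgeR p under 0.05 was found there for 454 of 11809 common LMRs and for 2824 of 226616 regions tested. Under shUHRF1 the share that rose from Knockdown to Recovery was 53.3% in flanks, 0.359% in other LMR stretches and 0.388% in common UMRs. Of common LMRs 217 (1.84%) rose, against 3.11% of all regions, and none fell, against 0.00574%. In the same comparison 6954 (58.9%) rose under shDNMT1, against 90.8%. The count of 217 was 24 without Cl.6, the fit without Cl.9 gave 124 calls of either direction, and limma gave 40. Under shDNMT1 2 fell, against 0.00706%, and 3317 and 3056 were called without R1 and without R2.

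The difference between the shRNAs was tested in the same fit. For the Knockdown change 5 common LMRs were called. In 2 the fall was larger under shUHRF1, against 0.00353% of all regions, and in 3 (0.0254%) it was smaller, against 0.192%. A smaller fall was called in 3.38% of flanks, 0.0220% of other LMR stretches and 0.0159% of common UMRs. An unadjusted edgeR p under 0.05 was found for 864 of 11809 common LMRs and for 16715 of 226616 regions tested. Among common LMRs limma called none. The count was 0 without Cl.3, R1 or R2, 1 without Cl.6 and 120 without Cl.9. For the Recovery change 1533 (12.98%) had a larger deficit under shUHRF1, against 25.7% of all regions, and 7 a smaller one, against 0.00838%. Limma called 72. The count was 2797 without Cl.3 and 518 without Cl.6. Without R1 or without R2, which leaves 1 bulk population whose spread is taken from the other groups, 8 and 5 were called.

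Regions with a CTCF match kept slightly less of their mC than regions with neither match, and the difference for regions with an AP-1 match went in opposite directions in the clones and the bulk populations at Recovery. The 1523 regions with a CTCF match were as long as the 5215 with neither match (median 426 bp in both) and had as many CpGs (median 8 in both). At Knockdown they kept 47.97%, 33.6%, 29.1%, 35.1% and 34.1% of their Baseline mC in Cl.3, Cl.6, Cl.9, R1 and R2, against 52.0%, 37.6%, 32.1%, 37.0% and 35.8% for the regions with neither. The difference was -2.93 ± 1.10 points (SD, n = 5, lower in 5 of 5, exact sign-flip p = 0.0625). At Recovery they stood at 60.2%, 44.8%, 44.6%, 94.0% and 93.2% of Baseline against 65.5%, 50.5%, 49.6%, 97.6% and 96.8%, a difference of -4.64 ± 1.00 points (SD, n = 5, lower in 5 of 5, exact p = 0.0625). Their flanks were also lower at Recovery, at 84.8%, 82.2%, 70.2%, 90.6% and 90.7% mC in the same order. Flanks of regions with neither match stood at 85.8%, 83.4%, 72.1%, 91.1% and 91.2%. The Baseline mC of regions with a CTCF match was lower too, with a mean over populations of 7.09% against 8.00%. The part of the surroundings and of the starting level in these differences was not tested. Among the 1523 regions 234 also had an AP-1 match. At Knockdown these 234 kept 52.8% (Cl.3), 38.7% (Cl.6), 29.2% (Cl.9), 36.5% (R1) and 36.6% (R2). That was above the regions with neither match in Cl.3, Cl.6 and R2 and below them in Cl.9 and R1. The 5082 regions with an AP-1 match and no CTCF match differed from those with neither by -0.0667 ± 1.146 points at Knockdown (SD, n = 5, exact p = 0.8125) and by 2.71 ± 3.24 points at Recovery (SD, n = 5, exact p = 0.25). At Recovery they stood at 72.3%, 53.7% and 54.2% of Baseline in Cl.3, Cl.6 and Cl.9, above the regions with neither match in each clone, and at 96.8% and 96.5% in R1 and R2, slightly below them. The flanks of regions with an AP-1 match were also higher at Recovery, at 87.9%, 85.3% and 76.8% mC in Cl.3, Cl.6 and Cl.9 against 85.8%, 83.4% and 72.1% for flanks of regions with neither match, and the part of the surroundings in the difference was not tested. The regions with an AP-1 match were longer, with a median of 635 bp.

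Regions with many CpGs had a lower Baseline level. The 2097 regions with 3 to 5 CpGs had a mean Baseline mC over populations of 11.2% and the 2210 regions with 15 or more CpGs one of 6.05%. At Knockdown the 2 sets kept 40.1% and 38.4% of it on average, a difference of -1.72 ± 3.69 points for the larger regions (SD, n = 5, exact p = 0.5). They lay in a UMR at Knockdown in 28.5% and 60.3% of cases, which is a description, since the number of CpGs in a call separates the classes. Regions within 1 kb of a gene start kept 40.9% of Baseline mC and those over 50 kb away 38.9%, a difference of 2.03 ± 1.19 points in the same direction in 5 of 5 populations (SD, n = 5, exact p = 0.0625).

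The single regions with the deepest falls were chosen by the size of the fall in points among those called, which by itself requires a high Baseline level. In the region nearest KLF4, which encodes an epithelial transcription factor, at chr9:108056402-108057844 (hg38, 1443 bp, 10 CpGs, 565920 bp from the gene start), mC went from 43.1% at Baseline to 19.4% at Knockdown in Cl.3, from 39.0% to 12.8% in Cl.6 and from 26.1% to 5.39% in Cl.9. In R1 and R2 it went from 20.9% and 23.6% to 13.4% and 11.9%. The 95% Wilson interval was 36.2% to 50.2% at Baseline and 13.9% to 26.3% at Knockdown in Cl.3. The log2 odds change was -2.11 under shUHRF1 (edgeR adjusted p = 8.4e-07) and -0.98 under shDNMT1 (edgeR adjusted p = 0.019). Each of these 5 populations was lower at Knockdown, and the clones were higher than the bulk populations at Baseline.

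Below it in size under shUHRF1 came an intergenic region near SLC2A7 (chr1:8987854-8988459) and an intron of RXRA (chr9:134365988-134366512), which encodes a nuclear receptor. In the SLC2A7 region the clones had 25.0% to 33.9% at Baseline and 2.32% to 8.96% at Knockdown, and the bulk populations had 25.5% and 25.2%, then 4.64% and 5.78%. In the RXRA intron the clones had 23.7% to 36.2% at Baseline and 6.19% to 7.73% at Knockdown, and the bulk populations had 8.04% and 15.2%, then 6.80% and 6.02%.

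Under shDNMT1 the deepest falls were in introns of FAM53B (chr10:124741421-124741616) and CAMTA1 (chr1:6960404-6960692) and in an intergenic region whose nearest start is that of ZNF184 (chr6:27553301-27553684, 384 bp, 13 CpGs). The FAM53B region went from 33.3% to 10.4% in R1 and from 34.5% to 7.42% in R2. The CAMTA1 region went from 36.6% to 5.82% and from 24.4% to 9.27%, and at Baseline it stood at 13.3%, 2.65% and 31.6% in the 3 clones. The ZNF184 region fell from 35.3% to 10.1% in R1 and from 36.9% to 16.1% in R2. In the clones it went from 31% to 42.7%, from 21.7% to 39.6% and from 34.9% to 29.1%, so that 2 clones were higher at Knockdown and 1 was lower. The log2 odds change differed between the shRNAs by 2.35 (edgeR adjusted p = 0.038), a call that limma (adjusted p = 0.19) and the fits without Cl.3, Cl.6, R1 or R2 did not make.

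A called rise was rare. An intron of FANCC, a gene of DNA crosslink repair, at chr9:95313142-95313484 (343 bp, 25 CpGs) rose under shUHRF1, with a log2 odds change of 0.80 (edgeR adjusted p = 0.015). Its mC went from 15.7% to 33.2% in Cl.3, from 20.1% to 34.7% in Cl.6 and from 19.0% to 19.8% in Cl.9. In R1 it went from 28.3% to 30.1% and in R2 from 29.3% to 13.5%. The rise did not pass without Cl.3 or without Cl.6 (edgeR adjusted p = 0.12 in each). A region near GPRC5D (chr12:12927358-12927950) was called higher under shDNMT1 with 0.345% and then 0.741% in R1 and 0% and then 1.51% in R2, and it did not pass without R2 (edgeR adjusted p = 0.56).

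Under shUHRF1 the regions furthest below Baseline at Recovery lay upstream of NPR2 (chr9:35790322-35790570), which encodes a natriuretic peptide receptor, upstream of PHC2 (chr1:33432860-33434606), a Polycomb gene, and near NEUROG3 (chr10:69515461-69516632), which encodes a transcription factor of endocrine progenitors. In the PHC2 region the clones went from 25.6%, 23.1% and 28.2% at Baseline to 4.62%, 4.35% and 2.41% at Knockdown and 5.63%, 8.70% and 4.35% at Recovery. In R1 it went from 22.9% to 7.22% and back to 17.5%, and in R2 from 19.5% to 2.72% and back to 19.9%. The Recovery levels of the clones lay below those of both bulk populations. In the NPR2 region the clones stood at 23.5% to 41.9% at Baseline and 9.33% to 18.5% at Recovery, and in the NEUROG3 region at 19.6% to 33.4% and 1.64% to 9.38%.

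Regions near genes of colon epithelium and Wnt signalling, of AP-1 and YAP/TEAD and of DNA methylation were counted by list. A region was assigned to a gene when that gene's start was the nearest of all protein-coding starts and lay within 50 kb. Of 37 colon epithelium and Wnt target genes 27 had 53 such regions, of which 45 fell under shUHRF1 and 30 under shDNMT1 at Knockdown, none rose, and 27 were still lower at Recovery under shUHRF1. Their median log2 odds change was -1.50 under shUHRF1 and -1.54 under shDNMT1. Of 23 AP-1 and YAP/TEAD genes 16 had 20 regions, of which 16 and 13 fell and 10 were still lower, with medians of -1.58 and -1.71. Of 10 DNA methylation genes 7 had 12 regions, of which 11 and 9 fell and 7 were still lower, with medians of -1.84 and -1.59. These counts stand beside 76.8% and 62.4% of common LMRs that fell and 48.9% still lower at Recovery under shUHRF1, and beside 94.0%, 92.4% and 80.9% of all regions tested, and nothing particular to the lists is read from them. Medians were -1.69 and -1.59 over common LMRs and -1.42 and -1.62 over all regions tested.

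Among the epithelial genes, CDX1 encodes an intestinal homeobox factor, and the region 4809 bp upstream of its start (chr5:150161164-150161969), which holds the CTCF window printed above, read 2.02% (Cl.3), 6.84% (Cl.6), 5.04% (Cl.9), 5.80% (R1) and 4.05% (R2) at Baseline. At Knockdown it read 0%, 0.913%, 2.41%, 0.368% and 0.508%, and at Recovery 0.524%, 0.375%, 1.76%, 5.75% and 4.31%. The bulk populations were back at their Baseline and the clones were not. The 0 of Cl.3 rests on 253 reads, whose 95% Wilson interval reaches 1.496%. The region 41 bp upstream of a start of HNF4A (chr20:44355501-44355658, 158 bp, 5 CpGs), a nuclear receptor of gut and liver, was more methylated. At Baseline it read 31.03% to 38.3% in the clones, 18.6% in R1 and 20.0% in R2, and at Knockdown 15.1% to 29.5%, 13.1% and 15.9%. It passed the test under shUHRF1 (edgeR adjusted p = 0.024) and not under shDNMT1 (edgeR adjusted p = 0.32), and without Cl.6 or Cl.9 it did not pass under shUHRF1 (edgeR adjusted p = 0.13 and 0.074).

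Of the AP-1 genes, JUNB had a region 4716 bp downstream of its start (chr19:12796202-12796980, 779 bp, 17 CpGs) at 5.397% (Cl.3), 11.4% (Cl.6), 12.9% (Cl.9), 5.76% (R1) and 5.46% (R2) at Baseline. At Knockdown all 5 lay between 1.02% and 1.95%, and at Recovery they read 2.21%, 4.18%, 2.78%, 4.04% and 4.81% in that order. It passed the test under shUHRF1 (edgeR adjusted p = 4.5e-08) and under shDNMT1 (edgeR adjusted p = 0.00048). The regions near JUN, JUND and FOS had at most 6.77% in any library at Baseline and at most 3.41% at Knockdown. Under shUHRF1 the JUN and FOS regions fell (edgeR adjusted p = 0.0026 and 0.043) and the JUND region did not pass (edgeR adjusted p = 0.063). Neither JUN nor FOS passed without Cl.6 (edgeR adjusted p = 0.10 and 0.44), and FOS did not pass without Cl.9 (edgeR adjusted p = 0.075) or with limma (adjusted p = 0.13). Under shDNMT1 all 3 fell (edgeR adjusted p = 0.039, 0.0088 and 0.0040 for JUN, JUND and FOS). In Cl.3 these regions held 1 or 2 methylated reads each at Baseline, too few to show a change in that clone.

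The DNA methylation genes included a target of the study itself. In an intron of UHRF1, 8676 bp downstream of its start (chr19:4911756-4912351, 596 bp, 23 CpGs), mC was 1.99% (Cl.3), 3.83% (Cl.6), 2.82% (Cl.9), 3.45% (R1) and 2.30% (R2) at Baseline, and 1.51%, 0.567%, 1.06%, 0.654% and 0.804% at Knockdown. At Recovery it was 1.70%, 0.895%, 2.196%, 1.69% and 3.73%. The fall passed under both shRNAs (edgeR adjusted p = 0.0054 and 0.0015) but not under shUHRF1 without Cl.6 (edgeR adjusted p = 0.10). DNMT3B encodes a methyltransferase that can add methylation de novo, and in its intron (chr20:32765304-32766020, 717 bp, 23 CpGs, with an AP-1 match) mC went from 4.79%, 15.6% and 9.79% to 2.22%, 3.72% and 2.27% in the clones and read 2.24%, 3.92% and 4.24% at Recovery. In R1 it went from 6.65% to 2.60% and to 8.35%, and in R2 from 7.05% to 0.637% and to 7.43%. In an intron of DNMT3A (chr2:25311184-25311534) mC fell in the clones (edgeR adjusted p = 0.00011), with 24.3% to 43.8% at Baseline and 6.72% to 14.3% at Knockdown, and did not pass in the bulk populations (edgeR adjusted p = 0.21), where R1 read 6.06% and 6.32% and R2 12.7% and 4.96%. The difference between the shRNAs at Knockdown was not called (edgeR adjusted p = 0.87). At Recovery this region read 15.3% to 20.0% in the clones, 20.6% in R1 and 19.4% in R2. The difference between the shRNAs in the Recovery change from Baseline was called in the fit of all 15 libraries. It was -2.32 in log2 odds (edgeR adjusted p = 0.022), from Baseline levels that were higher in the clones. The region upstream of TET1 (chr10:68554982-68555376), which encodes an enzyme that oxidises methylcytosine, was at or below 5.50% in every library.

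**Figure D5:**
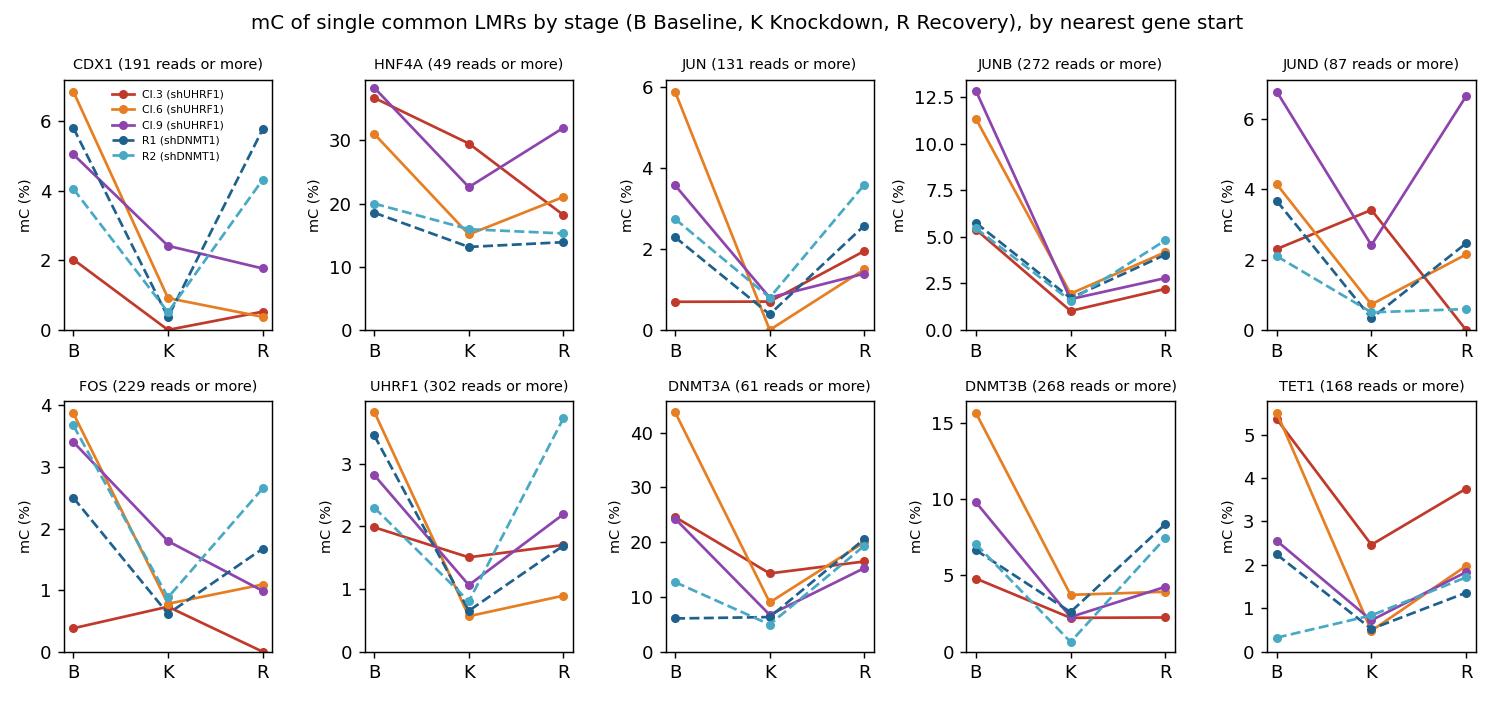
mC (%) of 10 single common LMRs, labelled by the gene with the nearest start, at Baseline (B), Knockdown (K) and Recovery (R), 1 line per population (solid shUHRF1, dashed shDNMT1), each panel with its own axis from 0 and the fewest reads of any library in its title. In the CDX1 and DNMT3B panels the dashed lines return to their starting level and the solid lines stay low, and panels with few reads (HNF4A and DNMT3A) scatter more.

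Near the thresholds of the rule, 78 regions of 100 bp or little more had a pooled mC of 14.5% to 22.2% at Baseline and 6.64% to 13.1% at Knockdown, and 55 pieces of 80 bp to just under 100 bp, left out, had 12.7% to 21.1% and 5.79% to 11.6%. The 26 regions with 3 CpGs had 13.2% to 14.3% and 3.10% to 6.93%, and 18 pieces with 2 CpGs, left out, had 14.2% to 16.7% and 4.34% to 10.2%. Of 12006 pieces of any size 160 were under 100 bp and 26 more had fewer than 3 CpGs.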

How the data were processed

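Whole-genome bisulfite libraries from 5 HCT116 populations at 3 stages were used. Alignment with Meth10X and domain calls with MethylSeekR are given as the authors' steps in the paper's methods, and HMDs were the complement (bedtools 2.25.0 and hg38 per the submitters' processing notes) with a mean mC above a minimum. The authors deposited counts per CpG, methylated and covering reads with no filter on coverage, and 1 domain list per library, whose start and end positions and class labels are of unit other. How duplicates and sequence variants were treated is not given in the sources used here. All 27852739 autosomal positions were checked to be CG in hg38, and 0 per-sample columns were left unused.

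Regions, lists and tests were chosen with earlier results of these data known. Counts were summed over regions and divided. Changes were tested over populations by exact sign-flip permutation, and the shRNAs by exact permutation. Regions with 3 or more CpGs and 20 or more reads in every library were tested with edgeR 4.0.16 (glmQLFit and glmQLFTest, methylation design, common dispersion, population as block, R 4.3.3), tested on simulated data first. limma 3.58.1 on log2((methylated + 1)/(unmethylated + 1)) was an alternative. Gene starts and features came from GENCODE release 44, and sequences from hg38. Replicates are the clones or populations named in the labels, and R1 and R2 are described as a pair of bulk populations. How far their cultures were separate is not given in the sources used here, so their p-values may measure technical spread.

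The block rests on the labels, since the libraries of 1 population share its name. Deviations from the group mean correlated between stages of the same clone at 0.563 to 0.776 and of the same bulk population at -0.0129 to 0.00632. Between R1 and R2 counts differed by a chi-square of 1.23 to 1.29 per region, where sampling noise gives about 1, and between clones by 2.83 to 7.64, and R1 and R2 were kept as 2 samples. Regions named singly were, for each of 4 contrasts, up to 3 called regions with the largest mean change in each direction among those that moved the same way in every population and had 100 or more reads in every library (for the difference between shRNAs, this was taken as the changes of all clones lying on one side of those of both bulk populations), and, for each list, the region nearest the start of the first 4 genes that had one, some of which are not reported here. Regions on chromosome 8 were counted and not named. Alternatives are given in the closing section.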

Additional observations from a re-analysis of the deposited data

Results flagged for a closer look

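Differences between the shRNAs were tested as a contrast within the edgeR fit. At Knockdown 5 common LMRs differed in their change. At Recovery 1540 did, of which 1533 (12.98%) had a larger deficit under shUHRF1 against 25.7% of all regions, and limma called 72 and the fits without R1 or R2 8 and 5. The shRNA cannot be told apart from clonal or bulk culture. Of the named regions, the intron of PXDC1 (chr6:3742158-3742730) had a log2 odds change under shUHRF1 minus shDNMT1 of -4.61 (edgeR adjusted p = 0.020). Its mC went from 3.0%, 5.35% and 5.84% to 0.372%, 0.268% and 0.772% in the clones and from 0.673% and 0.671% to 0.995% and 2.24% in R1 and R2. In R1 these levels rest on 2 methylated reads of 297 and 4 of 402, and the Knockdown levels of the clones on 1, 1 and 4 methylated reads. The difference in log odds therefore rests on few reads near the floor. The region upstream of ITGB3 (chr17:47229698-47230175), which encodes an integrin, had a difference of -5.14 (edgeR adjusted p = 0.040). Its mC went from 3.27%, 5.84% and 1.32% to 0%, 0.181% and 0% in the clones, and R1 and R2 were at or below 1.11% at every stage. The Baseline level of this region in R1, 0.186%, lay below the mitochondrial mC of that library, 0.295%, so this difference too rests on levels at the floor. The region nearest ZNF184 had a difference of 2.35, described in the report. None of the 3 regions was called by limma or in the fits without Cl.3, Cl.6, R1 or R2, where the edgeR adjusted p of PXDC1 was 0.067, 0.057, 0.13 and 1.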

How the results depend on the processing

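Of 188 alternative values of the comparisons, 155 were counted as the same. For pooled values this meant the same sign. For counts of called regions it meant a count within a fixed factor of the main count. For shares it meant a value within the spread or the interval. On the log odds scale the difference between the shRNAs in the pooled Knockdown change was 0.0662 in place of a negative value, and the difference between common LMRs and flanks in the Knockdown change was 1.10 in place of a negative share. No p of a pooled value could pass the threshold in this design. Without the replicate block, the counts of common LMRs called in either direction were 4227 and 2012 for the shUHRF1 and shDNMT1 Knockdown changes, 131 for the shUHRF1 Recovery change, 0 and 1469 from Knockdown to Recovery, and 0 for both differences between shRNAs. With limma they were 40 from Knockdown to Recovery under shUHRF1 and 0 and 72 for the differences. Leaving out 1 population gave 3332 to 4038 for the shDNMT1 Knockdown change, 3399 to 5751 for the shUHRF1 Recovery change, 24 to 215 and 3056 to 3317 from Knockdown to Recovery, and 0 to 120 and 5 to 2797 for the differences at Knockdown and Recovery. The cause was not tested. The share in class LMR at Recovery under shDNMT1 was 99.4% with any base pair in the class and with regions of 200 bp or more with 5 or more CpGs, and 98.4% with 90% of the length. All annotated genes gave 9.42% within 1 kb, and centred windows gave 41.5% with an AP-1 match. Of 169 alternative values for 24 results on named regions 133 stayed on their side of the threshold, 35 no longer passed it and 1 newly passed it. The subtraction of mitochondrial mC was chosen after seeing the data. Depth limits single regions with under 100 reads, where a count of 0 allows an mC above 3%.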
